A study of Mus musculus with 192 samples.

Results

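Cart encodes the cocaine- and amphetamine-regulated transcript, a precursor from which neurons cut short secreted peptides. In the arcuate nucleus of the hypothalamus Cart is made by neurons that also make Pomc, and its peptides reduce food intake, opposing Npy and Agrp, which increase it. Cart is also made outside the hypothalamus, in nuclei of the hindbrain and in scattered neurons of the cortex, where its role is less well described. The level of its mRNA was followed here across 4 brain regions, 3 time points, 3 genotypes and the time of day at which tissue was collected.

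Cart is 1 of the 43 target genes counted by NanoString nCounter, a method in which colour-coded probes are hybridised to mRNA and counted singly without amplification. It was counted in all 192 RNA pools: 49 of midbrain (with the forebrain and hypothalamus), 46 of hindbrain (with the cerebellum), and 48 of left and 49 of right cortex. The mice were males of the L44 line on an FVB/n background, which carries a transgene for tripro human amylin, an amylin less prone to aggregate than the human form, under the rat insulin 2 promoter, so that the transgene is driven in pancreatic beta cells. Nontransgenic (NON), hemizygous (HEM) and homozygous (HOM) mice were taken at T1 (prediabetic, 99 to 101 days old), at T2 (onset of diabetes in HEM and HOM mice, 90 to 286 days over all genotypes, with NON mice paired by age) and at T3 (post-diabetic, 400 to 408 days). Some NON pools at T3 are labelled as previously diabetic, and some HEM and HOM pools as not. Each pool held RNA of 1 or 2 mice and was collected in the morning (AM, 10am to 12pm) or the afternoon (PM, 1 to 3pm). For 12 HEM pools at T1 no collection time was given, and these entered no test, which left no HEM group in the AM at T1. The 5 right cortex HOM pools at T2 are called hemizygous in 1 label field and homozygous in their names and genotype field, and were grouped as HOM. All samples came from a single transgenic line, and in whole-tissue RNA fewer Cart neurons and less Cart mRNA per neuron cannot be told apart.

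In RefSeq (GRCm38.p6) the gene is listed as Cartpt, on the minus strand at chr13:99898483-99910179. The 250 bases before the start that RefSeq's promoter table uses, at chr13:99900684-99900933 (inside the annotated span of the gene, so not its outermost start), are printed because they hold 1 copy of TGACGTCA, the letters of the cyclic AMP response element, to which the CREB family of activators binds. This motif reads the same on both strands and is in capitals.

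Cartpt, 250 bases before the start: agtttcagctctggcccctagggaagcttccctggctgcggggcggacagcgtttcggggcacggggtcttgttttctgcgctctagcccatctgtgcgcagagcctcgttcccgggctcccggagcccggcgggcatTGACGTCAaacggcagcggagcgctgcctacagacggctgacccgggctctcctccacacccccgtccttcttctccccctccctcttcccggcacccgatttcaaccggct

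The motif began 112 bases before the start. Of 32851 mouse promoters of the same length, 508 (1.55%) held it. All 43 targets matched a RefSeq gene by the accession of their probe, 34 of them had a promoter in the table, and Cart was the only 1 of the 34 with the motif. The match describes the sequence and is not evidence of binding.

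Cart was well above background in every pool. Its raw count ran from 1837 to 7773 in the midbrain, from 36 to 3921 in the hindbrain, and in the cortices from 278 to 2768 on the left and from 284 to 2597 on the right, and the lowest value was still 3.96 times the background of its pool (the negative control probes of a pool, 2 SD above their mean). Levels are given as Cart counts per 1000 reference counts, that is, relative to the geometric mean of 3 reference genes in the same pool.

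The midbrain held the most Cart mRNA. In NON pools its level was 867 ± 137 (SD, n = 18), against 394 ± 149 in the hindbrain (SD, n = 18). The left cortex followed at 282 ± 99.3 and the right at 269 ± 109 (SD, n = 18 each). In the edgeR quasi-likelihood test with the mice of a pool as a block, Cart was lower in the hindbrain than in the midbrain by a log2 fold-change of -0.92 (SE 0.14, adjusted p = 1.24e-07) and lower in the left cortex than in the hindbrain by -0.88 (SE 0.15, adjusted p = 4.53e-07). Right and left cortex, neighbours at the bottom of the order, differed by -0.08 (SE 0.14, adjusted p = 0.989), less than the spread between pools. Differences between regions were the rule on this panel: 83.7% of the 43 genes had an adjusted p under 0.05 between hindbrain and midbrain, 83.7% and 81.4% between the left or right cortex and the hindbrain, and 76.7% and 74.4% between the left or right cortex and the midbrain, against 0% between the cortices. The step from cortex to hindbrain depended on the scale, since relative to the positive control probes it was -0.29 in the left cortex (adjusted p = 0.312).

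The order below the midbrain changed with time point. With each time point fitted alone, a choice made after the data were seen, Cart in the left cortex stood below the hindbrain at T1 (log2 fold-change -1.02, SE 0.15) and T2 (-1.10, SE 0.20) but above it at T3 (0.52, SE 0.20, adjusted p = 0.0253). At T3 only NON hindbrain pools 5/6 and 7 shared their label with left cortex pools. Both held little RNA, with reference means of 510.8 and 267.1. Without them the T3 value was 0.75, and only hindbrain pool 1/2 then entered it, through the midbrain pool of the same label. The change between time points was not itself tested. The NON hindbrain pools lay between 142 and 320 at T3, and the left cortex pools between 284 and 490. At T1 and T2 every NON hindbrain pool had been at 369 or higher. The midbrain stayed on top at all 3 time points, with the hindbrain 2.00 lower on the log2 scale at T3.

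The regions matched their labels in the genes of hypothalamic neurons. The summed level of Hcrt, Mch, Agrp, Pomc and Hdc, which mark orexin, melanin-concentrating hormone, arcuate and histamine neurons, was 2490 to 6839 in the midbrain, 62.7 to 265 in the hindbrain, and only 24.6 to 64.7 in left and 28.6 to 87.3 in right cortex. Mch was the most abundant of the 5 in the midbrain and both cortices, and none of the 5 was at 0 throughout any region. In the midbrain Mch made up most of the sum, with a median of 4107 beside a median sum of 4383. Cart therefore fell less steeply from midbrain to cortex than these markers did.

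**Figure D1:**
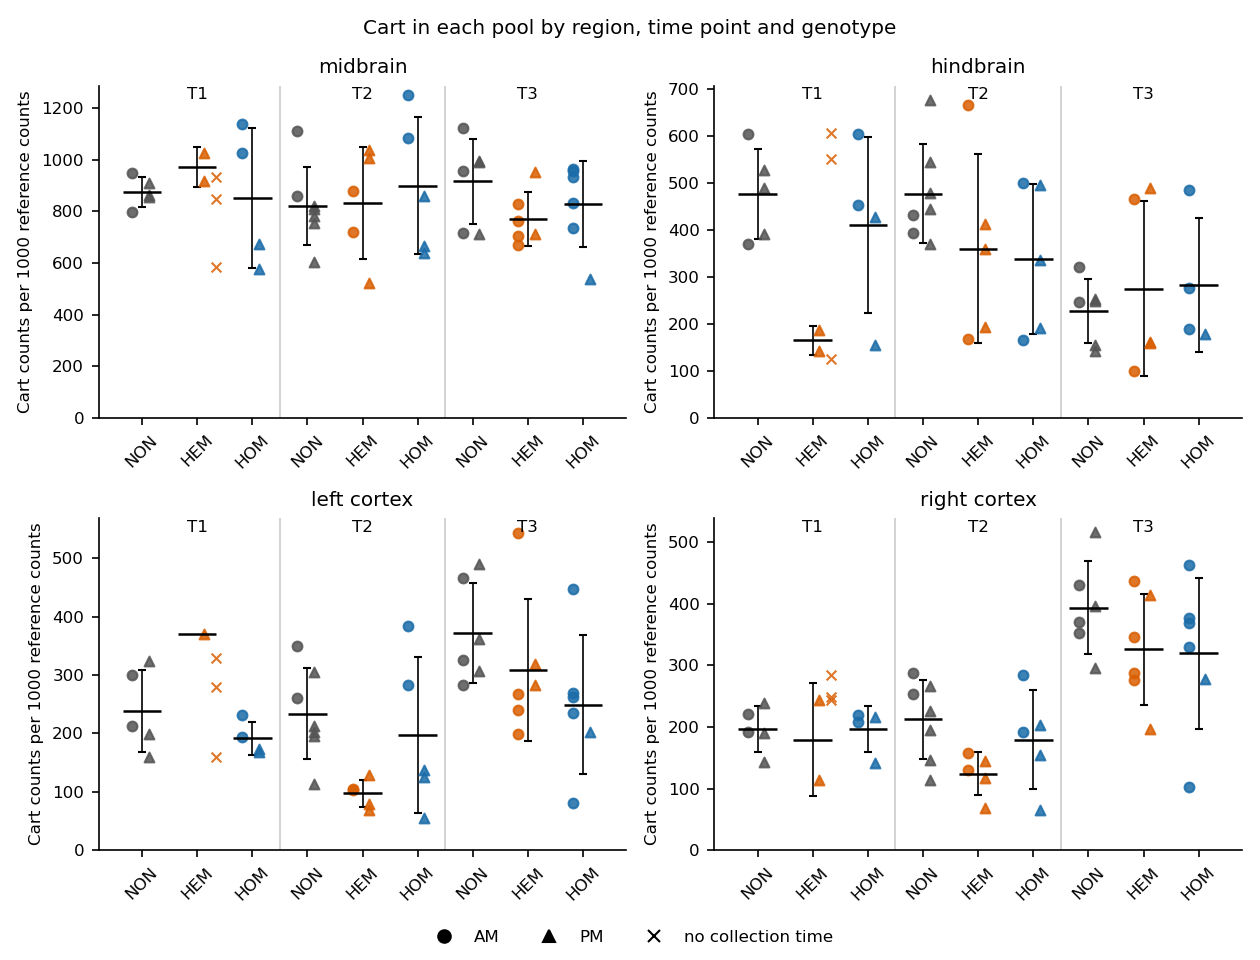
Cart counts per 1000 reference counts (y axis, linear) in each RNA pool of the 4 regions, by time point and genotype (x axis). Circles are AM pools, triangles PM pools and crosses HEM pools without a collection time; bars are the mean ± SD of the pools with a collection time. The 5 HEM pools of the left cortex at T2 sit between 68.9 and 129, and the NON pools of both cortices stand highest at T3.

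The clearest difference between genotypes was in the cortex of HEM mice at the onset of diabetes. In the left cortex at T2 the 2 AM HEM pools read 105 and 104 Cart counts per 1000 reference counts, against 349 and 260 in the 2 AM NON pools. The 3 PM HEM pools read 68.9, 79.0 and 129, and the 5 PM NON pools 113, 196, 202, 213 and 305. In the AM the groups were fully apart, and in the PM they overlapped only through the lowest NON pool and the highest HEM pool. Here and below, how many of the other genes had groups as fully apart was not counted. Averaged over AM and PM, Cart was lower in HEM by a log2 fold-change of -1.35 (SE 0.33, adjusted p = 0.0102), and passed both limits for a call, an adjusted p under 0.05 and a change of more than 1 on the log2 scale in either direction. It was the largest fall and the smallest p of the 43 genes, of which 4.65% were called and 6.98% had an adjusted p under 0.05. The only other gene called was Calcr, the core of the amylin receptor, which rose by 1.75 (SE 0.45, adjusted p = 0.0109). Akt2, a kinase of the insulin pathway, had an adjusted p of 0.0292 with a change of only -0.24. Without the HEM AM pool of mouse 9 the adjusted p for Cart was 0.0928 at an unchanged -1.35.

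Within 1 collection time, Cart was not called by the edgeR test over all groups. The left cortex difference was -1.55 in the AM (SE 0.52, adjusted p = 0.236, 2 pools against 2, 0% of genes called) and -1.16 in the PM (SE 0.39, adjusted p = 0.116, 3 against 5, 2.33% called), and these did not differ detectably (PM minus AM 0.39, SE 0.63, adjusted p = 0.925). The PM difference passed both limits with the positive control scale, with DESeq2 and with age-matched pairs as a block. The AM difference passed them with that block and when the compared groups were fitted alone. The HEM pairs of the left cortex did not deviate together on average (mean correlation -0.215 over 5 pairs). Passes with the block are therefore not counted as support. Calcr was called in the PM, at 2.42 (adjusted p = 0.000671).

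The right cortex of HEM mice moved the same way by less. The AM HEM pools read 130 and 158 and the AM NON pools 254 and 287. The PM HEM pools read 67.5, 118 and 145, and the PM NON pools 114, 146, 195, 226 and 267. The AM groups were again apart, and in the PM the 2 lowest NON pools fell within or next to the HEM range. The mean difference was -0.85 (SE 0.31, adjusted p = 0.104), which was not called, with 0% of the 43 genes called and 9 at an unadjusted p under 0.05. DESeq2 gave Cart the same -0.85 with an adjusted p of 0.054. Cart was again the gene with the lowest log2 fold-change of the 43, and its unadjusted p was 0.00969.

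An exact two-sided permutation test of the log2 level, with genotypes exchanged only within AM and within PM, gave p = 0.00595 in the left cortex, over 336 arrangements, and p = 0.0149 in the right. HEM stood at a ratio of 0.397 to NON in the left cortex and 0.555 on the right. For the mean of both cortices the ratio was 0.469 (exact p = 0.00893). After Benjamini-Hochberg adjustment over the 33 such comparisons of Cart these exact p-values all became 0.147, so the difference rests on the fit across all genes in the left cortex and not on this test. The NON controls were littermates where possible and otherwise mice of another litter of matching age. NON pools at T2 were paired with the transgenic pools by age, and pools 1/3, 7/8 and 6/9 serve in both HEM and HOM pairs. In the 5 HEM pairs so matched, Cart was lower in HEM in 5 of 5 in the left cortex (log2 differences from -1.94 to -0.64) and in 5 of 5 in the right (from -1.74 to -0.42).

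The midbrain of the same HEM mice did not show this, and the hindbrain was scattered. In the midbrain at T2 the HEM pools ran from 520 to 1039 with a median of 877 and the NON pools from 604 to 1111 with a median of 808, a log2 fold-change of -0.06 (SE 0.14, adjusted p = 0.845), and only 2 of the 5 age-matched HEM pools were lower. The cortical mean taken relative to the midbrain of the same pool was lower in HEM at a ratio of 0.499 (exact p = 0.0179, adjusted 0.147). In the hindbrain the difference was -0.31 (SE 0.40, adjusted p = 0.892). There 3 of 5 HEM pools lay below every NON pool, and 4 of 5 were lower than their age-matched NON pool (log2 differences from -1.36 to 0.76). Without the HEM AM pool 4/6 the hindbrain value was -0.97 (adjusted p = 0.644), and without the HEM AM pool of mouse 9 it was 0.0251. The summed hypothalamic markers in the left cortex were 46.3 to 64.7 in HEM and 43.8 to 62.5 in NON pools at T2. The part of these markers in the left cortex difference of Cart was not tested. In the right cortex they were 41.7 to 62.2 in HEM and 45.4 to 70.7 in NON pools. The right cortex means were 46.4 and 53.7 in the AM and 53.9 and 52.8 in the PM, and their part in the Cart difference was not tested.

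**Figure D2:**
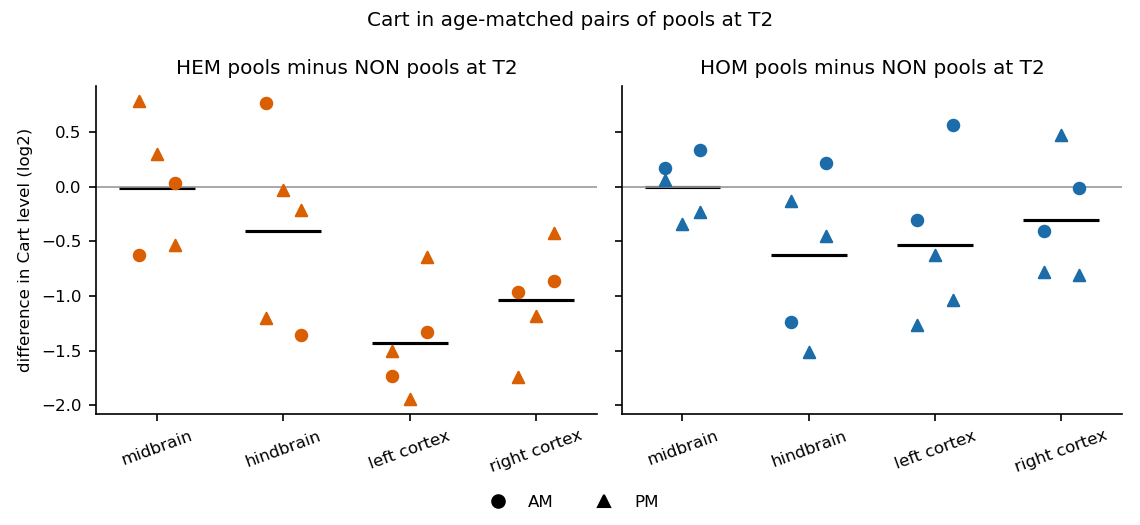
Difference in Cart level (log2, y axis) between each HEM or HOM pool at T2 and the NON pool matched to it by age, for each region (x axis). Circles are AM and triangles PM pairs, black bars the mean of 5 pairs. All 5 HEM pairs lie below 0 in each cortex, against 4 of 5 in the hindbrain and 2 of 5 in the midbrain.

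HOM mice, homozygous for the transgene, did not follow HEM mice in a simple order. In the left cortex at T2 the AM HOM pools, at 283 and 385, overlapped the AM NON pools, whereas the PM HOM pools, at 54.5, 126 and 138, lay below all but the lowest PM NON pool. The PM difference was -0.95 (SE 0.39, adjusted p = 0.0828), the lowest log2 fold-change of the 43 genes in a comparison where 2.33% were called and 9.30% had an adjusted p under 0.05, and the AM difference was 0.13 (SE 0.51, adjusted p = 0.989). The summed hypothalamic markers read 28.1 to 49.3 in these PM HOM pools, mean 40.2, and 43.8 to 51.8 in the PM NON pools, mean 49.1. Of them Hdc stood at -0.62 (adjusted p = 0.0432), Hcrt at -0.63 (adjusted p = 0.208) and Mch at -0.33 (adjusted p = 0.285), and their part in the PM value of Cart was not tested. The test of PM against AM gave -1.09 (SE 0.63, adjusted p = 0.625), so a dependence of the HOM effect on collection time was not shown. Over both collection times the HOM difference was -0.41 (SE 0.32, adjusted p = 0.397). HOM against HEM stood at 0.94 (SE 0.33, adjusted p = 0.117). That last difference had an adjusted p of 0.026 on the positive control scale and 0.0236 with age-matched pools as a block.

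In the right cortex at T2 the HOM pools read 192 and 284 in the AM and 64.6, 155 and 203 in the PM, all within or below the NON range. The mean difference was -0.31 (SE 0.30, adjusted p = 0.650). In the midbrain it was 0.09 (SE 0.14, adjusted p = 0.916) and in the hindbrain -0.43 (SE 0.41, adjusted p = 0.943). Leaving out 1 pool at a time moved these to between 0.00129 and 0.19 and to between -0.94 and -0.14, the hindbrain value resting on AM HOM pools 5 (-0.94 without it) and 1/3 (-0.14 without it). HOM pools were lower than their age-matched NON pools in 4 of 5 pairs in each cortex and in the hindbrain, and in 2 of 5 in the midbrain.

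On the reference gene scale with all pools, no other feeding gene of the panel passed the test in the cortex of HEM mice at T2. Of Pomc, Agrp, Npy, Hcrt, Mch and the melanocortin receptor Mc4r, 0 of 6 passed the edgeR test in either cortex of HEM mice at T2. Of all 43 genes 6.98% passed on the left and 0% on the right. In each cortex 1 of the 6, Npy, had an unadjusted p under 0.05, where 9 of all 43 genes did so. The count for the list is thus near that of the panel, and its members are given by value. Pomc, the precursor of alpha-MSH and the partner of Cart in the arcuate nucleus, stood at 0.18 (SE 0.26) in the left cortex and -0.00 (SE 0.40) on the right. Npy stood at 0.32 (SE 0.15, adjusted p = 0.218) and 0.43 (SE 0.13, adjusted p = 0.102). Under 2 alternatives 1 of the 6 did pass: Npy on the right with age-matched NON pools alone in the PM, at 0.53 (adjusted p = 0.00901), and Mc4r on the left with age-matched pools as a block, at 0.47 (adjusted p = 0.0404). In the midbrain Npy stood at 0.71 in HEM (SE 0.20, adjusted p = 0.0259, among 9.30% of genes with an adjusted p under 0.05) and Cart at -0.06. That pass of Npy was lost with TMM (adjusted p = 0.0512), on the positive control scale (0.0652), with reference gene 2 (0.075) or 3 (0.095) left out and with only the groups compared in the fit (0.124), where no gene of the 43 passed. In the left cortex of HEM mice, where 6.98% of all 43 genes passed, 0 of 8 genes of the leptin arm did so. Of the insulin arm 1 of 13 passed (Akt2, lower) and of the amylin arm 1 of 11 (Calcr, higher). Akt2, at -0.24, no longer passed with TMM, on the positive control scale, with reference gene 3 left out or with age-matched pools as a block (adjusted p from 0.0579 to 0.959). Calcr, at 1.75, missed with that block (adjusted p = 0.0879) and was itself removed by the filter on low counts. The median gene of the 43 stood at 0.00 there and at -0.03 on the right. Calcr was above background in only 44.2% of the left cortex pools.

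**Figure D3:**
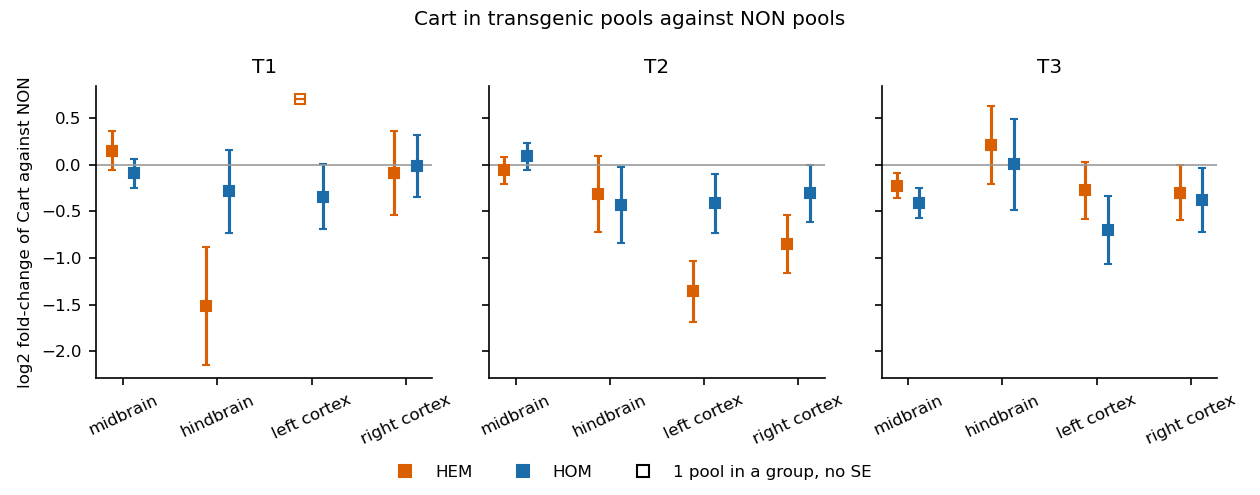
Log2 fold-change of Cart against NON (y axis) with its SE in each region (x axis) at T1, T2 and T3, averaged over AM and PM (PM alone for HEM at T1). The left cortex of HEM mice at T2, at -1.35, is the only value called; the open square has 1 HEM pool and no SE.

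Before diabetes, at T1, the cortices did not show a lower level in HEM mice. In the right cortex the PM HEM pools read 114 and 245 and the PM NON pools 142, 191 and 240 (log2 fold-change -0.09, SE 0.45, adjusted p = 0.906). The left cortex had 1 PM HEM pool, at 370, above the 3 PM NON pools at 160, 199 and 325, and was not tested. At T3 the HEM difference was -0.27 (SE 0.30, adjusted p = 0.803) in the left cortex and -0.30 (SE 0.29, adjusted p = 0.610) on the right. The change of the HEM effect from T2 to T3 was 1.08 in the left cortex (SE 0.44, adjusted p = 0.123) and 0.55 in the right (SE 0.42, adjusted p = 0.444), neither called. The HEM effect at T2 was therefore not shown to differ from that at T3. On the positive control scale the left cortex value was 1.62 with an adjusted p of 0.0222.

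In HOM mice at T3, Cart stood at -0.70 in the left cortex (SE 0.36, adjusted p = 0.275), -0.38 in the right (SE 0.34, adjusted p = 0.746) and -0.41 in the midbrain (SE 0.16, adjusted p = 0.0766), the last being the lowest of the 43 genes. The PM part of these averages rests on 1 HOM pool. In the AM alone (5 HOM against 3 NON pools) the left cortex stood at -0.47 (adjusted p = 0.516), the right at -0.23 (adjusted p = 0.623) and the midbrain at -0.08 (adjusted p = 0.755). One AM HOM pool, that of mouse 10, was low in both cortices, at 80.9 in the left and 102 in the right, against 284 to 490 and 296 to 517 in the NON pools. In the right cortex at T3 the 3 HEM pools of mice that had been diabetic read 197 to 287 and the 3 of mice that had not 346 to 437, without overlap, whereas in the left cortex they read 240 to 284 and 199 to 544. In the midbrain of HEM mice the order was the opposite, again without overlap, at 763 to 951 in pools of mice that had been diabetic and 668 to 710 in the others. The NON pools of the right cortex carry the same label, and there the 3 marked as previously diabetic read 371 to 517 and the other 3 read 296 to 431, overlapping and in the opposite order to HEM. With AM and PM mixed in both sets, no test of this split was made.

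In the hindbrain, Cart was more scattered in transgenic than in NON mice. The 12 NON pools of T1 and T2 lay between 369 and 677. Of the 19 HEM and HOM pools of the same time points, 10 lay below the lowest NON pool, down to 124, and none lay above the highest. These 19 include the 3 HEM pools at T1 without a collection time, of which 1, at 124, is among the 10. The low pools came from HEM and HOM mice of both time points and from AM and PM. Against the NON pools of T1 alone, 4 of the 9 transgenic pools at T1 lay below and 2 above. At T3 the direction was not kept: 1 of 9 lay below and 3 above every NON pool, which ran from 142 to 320. The log2 fold-change of Cart at T3 was 0.21 in HEM (SE 0.42, adjusted p = 0.739) and 0.0033 in HOM, whose PM part is 1 pool. At T1 the PM HEM pools read 142 and 187 against 391, 490 and 526.5 in the PM NON pools, without overlap, and the log2 fold-change was -1.51 (SE 0.63, adjusted p = 0.866). There 0% of the 43 genes were called and Cart alone had an unadjusted p under 0.05, with an adjusted p of 0.489 by DESeq2. Fitted on the compared groups alone, the same value had an adjusted p of 0.00463. The exact permutation test gave p = 0.10, the smallest that 2 pools against 3 allow. The HEM pools without a collection time read 124, 552 and 607, so that low hindbrain Cart was not common to all HEM mice at T1. Calcr had a median of 56.3 in the 10 low pools and 60.0 in the NON pools. Pomc ran from 6.15 to 189 with a median of 16.2 in the 10 low pools, and from 11.9 to 78.0 with a median of 29.1 in the NON pools, so that the groups overlapped. At T2 Pomc stood at 1.32 in HEM (SE 0.62, adjusted p = 0.617), and in the PM at T1 it stood at -1.68 in HEM (SE 1.03, adjusted p = 0.866). The hypothalamic marker sum at T1 was 90.0 and 86.6 in the PM HEM pools, against 99.9 to 124 in the PM NON pools, and its part in the difference was not tested.

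Within collection times, Cart was compared between genotypes 44 times across the 4 regions, and 39 of these had at least 2 pools in each group. Of the 39, Cart was called in 0 and had an unadjusted p under 0.05 in 6. DESeq2 values were kept for only 9 of them, those of both cortices at T2 and of HEM hindbrain in the PM at T1. Among these 9, only the left cortex of HEM mice in the PM at T2 was called by DESeq2. All 43 genes together were called in 0.417% of such tests. Cart was lower in the transgenic pools in 29 of the 39, but the comparisons share NON pools and the cortices share mice, so these are not 39 independent results.

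The level of Cart went together in the 2 hemispheres of the same mice, and no such relation was found with the other regions. After the mean of each group of time point, genotype and collection time was removed, the left and right cortex of the same mice correlated with r = 0.797 over 40 pools (permutation p = 1e-05, the smallest that 100000 permutations give, adjusted 6e-05 over 6 region pairs). Spearman's rho was 0.729, and without the 2 pools farthest from the median r was 0.750. In a group of 2 pools the deviations mirror each other by construction, so the 40 pools are not independent values. The permutation treats them as independent, and its p may be too small. Within time points r was 0.733 at T1 (9 pools), 0.874 at T2 (17) and 0.762 at T3 (14). The other 5 pairs of regions lay between -0.185 and -0.0143, each with an adjusted permutation p of 0.927. Left cortex and midbrain, for example, gave r = -0.0143 over 41 pools. Within single time points the other pairs ranged from r = -0.347 (midbrain and hindbrain at T2, 17 pools) to 0.532 (hindbrain and right cortex at T1, 11 pools).

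**Figure D4:**
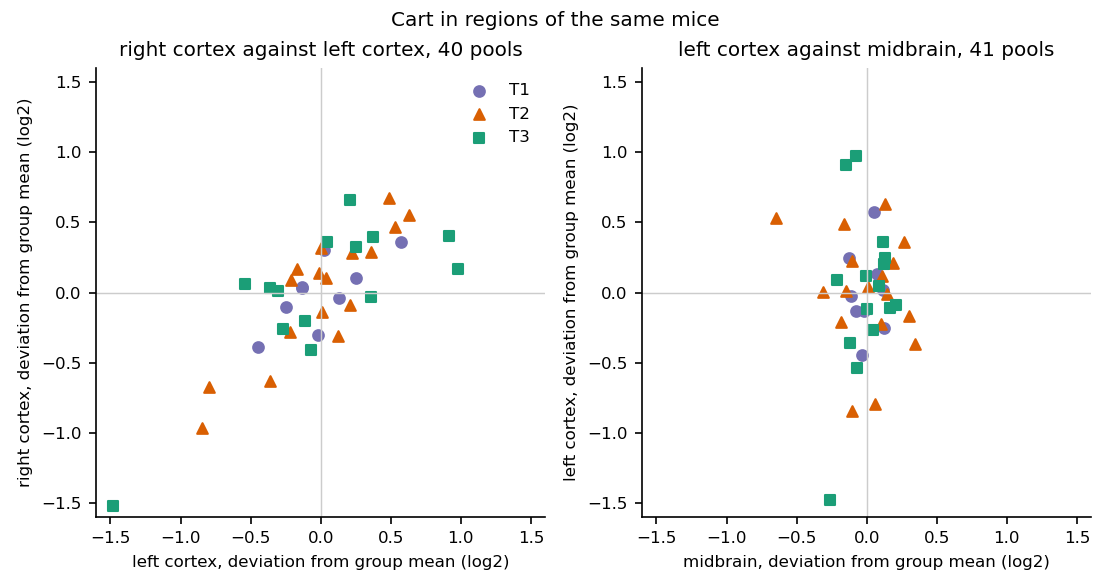
Deviation of log2 Cart from its group mean in 2 regions of the same mice, right cortex against left cortex (40 pools) and left cortex against midbrain (41 pools), each point 1 pool and the shape its time point. The cortices follow each other (r = 0.797), and left cortex and midbrain do not (r = -0.0143).

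Cart was among the more variable genes of the panel. Its SD within groups was 0.55 on the log2 scale in the left cortex and 0.55 on the right, rank 3 of 37 and rank 4 of 38 among genes detected often enough to rank, where the median gene had 0.15 and 0.16. In the hindbrain it was 0.70 and in the midbrain 0.24. The genes whose deviations ran closest to those of Cart differed by region. They were Hdac5 (r = 0.540), Lepr-b (0.469) and Ptp1b (0.441) in the left cortex over 43 pools, and Hdac5 (0.446), Akt2 (0.436) and Adrbk1 (0.340) in the right over 45. In the midbrain Pomc was first (r = 0.381, 45 pools), ahead of Lepr-b (0.357) and Mch (0.323). In the hindbrain it was Calcr (0.531, 42 pools), then Calcr-1a (0.448) and Gsk3b (0.427). Npy, which acts against Cart on feeding, ran opposite to it in the left cortex (r = -0.481) and the right (-0.636). These correlations share library and scale and are given as a description.

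In NON mice Cart rose from T1 to T3 in the right cortex relative to the reference genes, a scale on which more genes of the panel fell than rose. In the right cortex the 5 NON pools at T1 read 142 to 240 with a median of 192, and the 6 at T3 read 296 to 517, without overlap. In the left cortex they read 160 to 325 and 284 to 490, overlapping. Relative to the reference genes the log2 fold-change from T1 to T3 was 0.99 in the right cortex (SE 0.31, adjusted p = 0.00520) and 0.62 in the left (SE 0.31, adjusted p = 0.0966). In both, Cart was the highest of the 43 genes, whose median change was -0.33 in the right cortex and -0.22 in the left. The share of genes with an adjusted p under 0.05 was 62.8% and 58.1%, and 6.98% were called in each. Of the genes under that limit in the right cortex, 5 were higher and 22 lower on the reference gene scale, 11 higher and 9 lower with TMM (median gene 0.04), and 0 higher and 43 lower on the positive control scale. Cart missed the fold limit there by a small margin and was not called, though it was without any 1 of pools 6 or 8/9 at T1 or 3/4, 5/6 or 7 at T3. Of the leptin arm 7 of 8 genes fell in each cortex (5 with TMM, 8 on the positive control scale), and of the feeding genes 1 of 6 fell in the right and 2 of 6 in the left (0 and 1 with TMM, 6 in each on the positive control scale), with none that rose. Relative to the median gene, Cart stood 1.32 higher in the right cortex and 0.84 higher in the left. On the positive control scale the median gene stood at -2.09 and -1.83, and the direction for Cart turned to -0.75 and -1.03, yet relative to that median it still stood at 1.34 and 0.80. Time point cannot be told apart from the assay runs, for which the files carry no label.

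Relative to the reference genes the hindbrain went the other way, and the midbrain stood near 0. From T1 to T3 the hindbrain of NON mice changed by -1.001 (SE 0.42, adjusted p = 0.0395), against a median gene of -0.54 and 9.30% of genes called and 62.8% under 0.05, and with TMM scaling it was -0.52 and not called. On the positive control scale it was -2.59 beside a median gene of -2.13, and there both cortices fell too, so the opposite direction does not hold on that scale. The call was also lost without any 1 of 7 of the 11 pools (4/5, 6 or 8/9 at T1, and 1/2, 4/11, 7 or 8 at T3), with adjusted p-values from 0.0552 to 0.123. The midbrain changed by 0.07 (SE 0.14, adjusted p = 0.694) against a median of -0.20, with 51.2% of genes under 0.05. Between T1 and T2 no region changed by more than 0.19 (the right cortex, adjusted p = 0.935). PM against AM in NON mice lay between -0.21 in the left cortex and -0.10 for the hindbrain, with adjusted p-values from 0.668 to 0.833. In HOM mice, where 25.6% of the midbrain genes had an adjusted p under 0.05 between PM and AM and 2.33% were called, Cart stood lower in the PM by -0.73 in the midbrain (SE 0.14, adjusted p = 0.000269). In their left cortex it stood at -0.77, beside 41.9% of genes under 0.05. In the HOM midbrain the mean sum of the hypothalamic markers, most of it Mch, was also lower in the PM. It was 4150 against 4998 at T1, 4280 against 5032 at T2 and 3629 (1 pool) against 4267 at T3. The part of these markers in the difference of Cart was not tested.

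**Figure D5:**
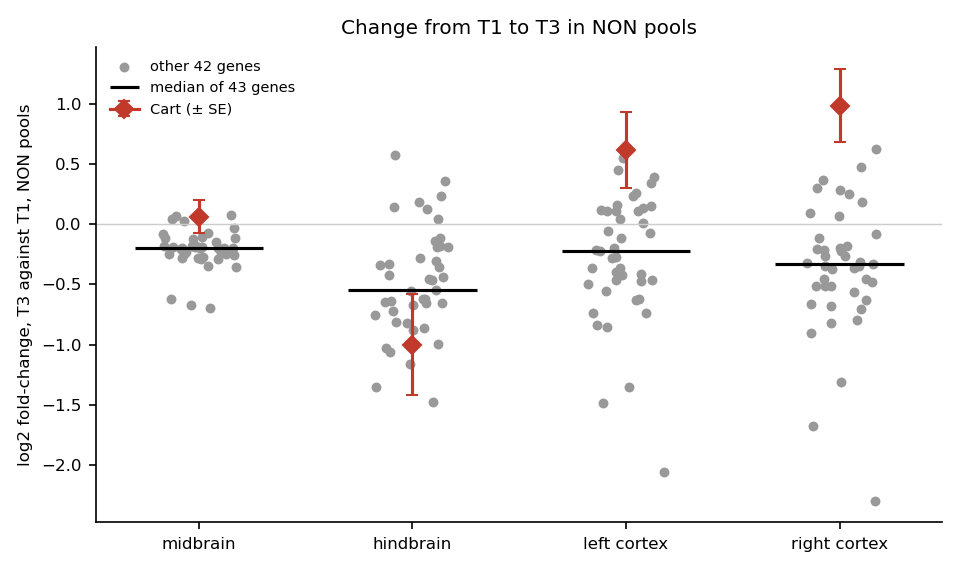
Log2 fold-change from T1 to T3 in NON pools (y axis) for Cart (diamond, ± SE), the other 42 genes (grey points) and the median of all 43 (black bar) in each region (x axis), relative to the reference genes. Cart is the highest gene in both cortices, at 0.62 and 0.99 (both below 0 on the positive control scale), and lies below the median in the hindbrain.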

How the data were processed

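RNA from the 4 brain regions of L44 mice was pooled by the authors, 1 or 2 mice per pool in equal amounts (the mice pooled at T3 differ between regions), and counted on the NanoString nCounter. The deposited values are raw counts per probe, with no normalisation or background subtraction: 43 target genes, 3 reference genes, 6 positive and 8 negative control probes. The study's own test was NanoStringDiff, which was not used here. Levels are Cart counts divided by the geometric mean of the reference genes, times 1000.

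Differential expression was tested with edgeR 4.0.16 (quasi-likelihood), the reference mean as the offset, 1 fit per region over all pools with a collection time, and Benjamini-Hochberg adjustment over the 43 genes. A gene was called when its adjusted p was under 0.05 and its log2 fold-change was above 1 or below -1; between regions the adjusted p alone was used. Exact permutation tests and correlations used log2(level + 0.5). DESeq2 1.42.0, TMM, positive control scaling, each reference gene left out, background subtraction, a low-count filter and each pool left out were alternatives. The fit was tested on simulated counts, and no result here draws on that test. No 2 of 198 pairs of pools were identical. Total target counts ran from 3489 to 252890 in the hindbrain, where 3 pools at T3 held little RNA (reference mean 130.5 to 510.8), and from 51446 to 525264 elsewhere, so counting error on Cart is small beside the spread between pools, which limits the precision. Genes named are Cart, the feeding genes, those passing the test in the leptin, insulin and amylin lists, and the 3 most correlated with Cart per region; others were named after their values were seen. The gene, the lists and the tests were chosen with earlier results of these data known.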

Additional observations from a re-analysis of the deposited data

Results flagged for a closer look

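The 12 HEM pools at T1 without a collection time entered no test, and 5 of them stood above every NON pool of their region at T1. In the right cortex this held for all 3, pools 1/2, 3/4 and 5/6, at 243.9, 248.2 and 284.6 Cart counts per 1000 reference counts, against a highest NON pool of 239.7. In the left cortex pool 5/6 stood at 328.9 and the highest NON pool at 324.6, and in the hindbrain the same mice stood at 606.7 against 603.6. Others stood below every NON pool of their region at T1: hindbrain pool 1/2, at 124.2 against a lowest NON pool of 370.5, and midbrain pool 5/6, at 582.4 against 797.2. These are values of single pools, and the excess in the hindbrain and left cortex is small beside the spread between pools. Of 11 groups of 4 to 10 pools, 0 held a pool far from the others by Dixon's test.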

How the results depend on the processing

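Of 549 values under alternative settings of 50 results, 507 kept their direction and their side of the threshold, as did 599 of 640 values with 1 pool left out. Most of the 50 results had not passed to begin with, and kept their side by still not passing. Of results called, the hindbrain change from T1 to T3 lost its call in 7 of 11 fits with 1 pool left out. The left cortex T2 HEM difference lost it in 1 of 12, and the called steps between regions in 0 of 23 each. The single-time-point fits, those without the pools of little RNA and the afternoon comparisons in HOM mice were alternatives picked once the data had been seen. The causes of the changes were not tested.

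Relative to the positive control probes, the T2 HEM difference in the midbrain was 0.023, the T3 vs T1 change of NON mice -1.03 in the left cortex and -0.75 on the right, T2 vs T1 0.10 in the midbrain and -0.34 in the left cortex, PM vs AM 0.10 in the hindbrain, right vs left cortex 0.22 and left cortex vs hindbrain -0.29. On the same scale 3 left cortex values gained the call: T2 HEM in the PM at -1.32, HOM against HEM at 1.21 and the HEM effect at T3 minus T2 at 1.62. With TMM, the PM minus AM difference of the right cortex T2 HEM effect was -0.0238, T2 vs T1 was 0.0388 in the hindbrain, 0.0136 in the midbrain and -0.0706 in the left cortex, and T3 vs T1 was -0.52 in the hindbrain and 1.37 in the right cortex, the last now called. With reference gene 1 left out, T3 vs T1 in the hindbrain was -0.96 and T2 vs T1 in the midbrain 0.0129. With reference gene 2 left out the hindbrain value was -0.997, just inside the fold limit, and with gene 3 left out T3 vs T1 was -0.0103 in the midbrain and 1.03 in the right cortex. Without the pools of little RNA the hindbrain value was -0.98. Fitted on the compared groups alone, the left cortex T2 HEM difference in the AM was -1.55 and the hindbrain T1 HEM difference -1.51, both called, and DESeq2 called the left cortex T2 HEM difference in the PM at -1.16.

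With age-matched NON pools only, the PM minus AM difference of the right cortex HEM effect was -0.15. At T3 alone, left cortex vs hindbrain was 0.52 (0.749 without the pools of little RNA) and right vs left cortex 0.099 (0.0979). In HEM pools left cortex vs hindbrain was -0.55 and right vs left 0.0669, and in HOM pools right vs left was 0.11.

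Age-matched HEM and NON pools at T2 mostly did not deviate together. The mean correlation over 5 HEM pairs was -0.215 in the left cortex (-0.429 to 0.174) and 0.0254 in the right. It was -0.17 in the midbrain and -0.0088 in the hindbrain. For HOM pairs it was 0.262 in the left cortex, 0.149 in the right, 0.0325 in the midbrain and 0.0554 in the hindbrain. The pairing was used as a replicate block, and calls gained only with the block are not counted as support. With the block, the left cortex T2 HEM value was -1.45 (adjusted p = 0.001), at -1.55 in the AM and -1.35 in the PM (both called), HOM against HEM 1.06 (called), and the right cortex PM minus AM difference -0.13. The exact tests over 5 pairs cannot fall below p = 0.0625: left cortex -1.43, right cortex -1.03 and both cortices -1.23 reached it, and cortices minus midbrain, -1.22, did not. Without the block of mice between regions, left cortex vs hindbrain was -0.58.

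With 1 pool left out, the T2 HEM value ran from -0.97 to 0.0251 in the hindbrain, -0.15 to 0.068 in the midbrain and -1.51 to -1.24 in the left cortex (-1.48 to -0.98 in the PM). T2 HOM ran from -0.11 to 0.36 in the left cortex AM, -1.18 to -0.64 in its PM and -0.50 to 0.0721 in the right cortex AM. PM minus AM in the right cortex ran from -0.12 to 0.38 for HEM and -0.61 to 0.10 for HOM. T3 vs T1 ran from -1.16 to -0.80 in the hindbrain, -0.0134 to 0.15 in the midbrain and 0.88 to 1.09 in the right cortex. T2 vs T1 ran from -0.23 to 0.13 in the hindbrain, -0.12 to 0.0653 in the midbrain and -0.0626 to 0.22 in the left cortex, and PM vs AM in the hindbrain from -0.20 to 0.0312. The exact tests ran from -0.97 to -0.69 in the right cortex (HEM), -0.54 to -0.17 in both cortices (HOM) and -0.67 to -0.29 in cortices minus midbrain (HOM). The number of genes called from T1 to T3 depended most on the scale, with 4 in the hindbrain becoming 1 with TMM and 42 with positive controls, and 3 in each cortex becoming 43 in the left and 42 in the right with positive controls.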

Other observations

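The midbrain of HOM mice held less Cart mRNA in the afternoon than in the morning, a comparison made after the pools had been seen. At T1 the AM pools read 1024 and 1137 Cart counts per 1000 reference counts and the PM pools 575 and 674. At T2 the AM pools read 1083 and 1249 and the PM pools 637, 665 and 858. At T3 the 5 AM pools read 735 to 965 and the single PM pool 538. At each time point all PM pools stood below all AM pools. Over the 3 time points the log2 fold-change was -0.73 (SE 0.14, edgeR adjusted p = 0.000269), where 25.6% of the 43 genes had an adjusted p under 0.05. The exact permutation test within time points gave -0.74 (p = 0.00278, adjusted 0.0333 over 12 such comparisons).

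The summed hypothalamic markers of the HOM midbrain pools also had lower means in the PM, a sum that in the midbrain is mostly Mch and says little of the other markers. They were 4150 against 4998 in the AM at T1, without overlap, and 4280 against 5032 at T2. At T3 the single PM pool read 3629 and the AM mean was 4267. In NON midbrain the PM and AM means were 4670 and 4694 at T1, 4639 and 4831 at T2, and 4672 and 4051 at T3. The part of these markers in the difference was not tested. For Cart in NON midbrain the PM to AM difference was -0.14 (exact p = 0.206) and in HEM 0.10 (exact p = 0.687). The difference between the HOM and NON values, -0.59 (SE 0.18), had an unadjusted p of 0.00210 and an adjusted p of 0.0774. Over 11 alternative settings the adjusted p ran from 0.0158 (compared groups alone) to 0.183 (positive control scale), and over 32 fits with 1 pool left out from 0.0216 to 0.243, so that whether the difference passed 0.05 depended on the setting. In the left cortex HOM mice stood at -0.77 (adjusted p = 0.0400, 41.9% of genes under 0.05), where the exact permutation test gave p = 0.103 (adjusted 0.433) and every PM pool was lower at 2 of 3 time points, in the right cortex at -0.42 (adjusted p = 0.273) and in the hindbrain at -0.56 (adjusted p = 0.492). With 1 HOM pool left out, in the 14 fits that could be made, the midbrain value lay between -0.78 and -0.70.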
